A study of Homo sapiens with 15 samples.

Results

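A stretch of the long arm of chromosome 4 was examined in 5 sublines of VCaP, an established human prostate cancer cell line. The stretch runs from position 113214046 to position 139454034 (GRCh38, chromosome 4), a length of 26.2 Mb, and was selected on the RNA levels in these libraries, for genes that were higher in the bicalutamide-resistant subline VCaP-CT-BR than in its parent VCaP-CT. Of the 268 genes of the counting annotation that start there, 128 had a count in any library and 140 had none. Members are the 55 genes with a mean count of at least 10 over the 15 libraries, out of 58381 genes in all. The other 73 counted genes fell under that minimum. All 55 members passed the filter on low counts that left 19621 genes for testing, and they comprise 37 protein-coding genes, 12 pseudogenes and 6 long non-coding RNAs (lncRNAs). Since VCaP-CT-BR and VCaP-CT chose the segment, every comparison that holds libraries of either is given as a description, without a test.

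Each subline was sequenced as 3 replicate libraries of bulk RNA, which the study calls biological replicates. VCaP-T was kept in 10 nM testosterone for 7 months and depends on it. VCaP-CT arose from VCaP-T over 10 months at 0.1 nM testosterone and grows despite the low androgen. VCaP-CT-ER (VCaP-CT-ET in the culture protocol) arose from VCaP-CT in 10 µM enzalutamide, an antiandrogen drug. VCaP-CT-BR arose from VCaP-CT in bicalutamide, an older antiandrogen, and VCaP-CT-BR-ER in enzalutamide from cells that no longer answered to bicalutamide. The sample labels differ from the protocol in 2 points: they list 10 nM for the 10 months of every derived subline, and they add enzalutamide to the history of VCaP-CT-BR. All media held hormone-stripped serum, and all derived sublines share the 7 months in 10 nM testosterone. Each subline is a single derivation, so that treatment, time in culture and chance differences of the derivation cannot be told apart. The libraries hold RNA, and the number of DNA copies of the segment was not measured.

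A chromosome segment has no function of its own; its genes share a place. Genes of a stretch can change together when cells gain or lose copies of it, which is frequent in cancer lines, when a shared chromatin domain opens or closes, or when several of them answer the same regulator. The long arm of chromosome 4 holds well-known cell cycle genes such as CCNA2, which encodes cyclin A2, MAD2L1, a protein of the spindle checkpoint, and PLK4, the kinase that starts centriole duplication. It also holds SLC7A11, the cystine importer that feeds glutathione synthesis, and METTL14, a subunit of the enzyme that writes N6-methyladenosine on RNA.

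Library totals lay between 33665716 and 46935279 counted fragments, and each library correlated more with those of its own subline (log2 CPM, lowest r = 0.9913) than with any other (highest r = 0.9802). Of the markers of the VCaP line, HOXB13 averaged 392 to 709 CPM over the sublines, ERG 248 to 531 and EPCAM 224 to 371, while KLK3 averaged 3560.3 CPM for VCaP-T and 14.1 for VCaP-CT-BR. TMPRSS2 averaged 651 CPM for VCaP-T and 102 for VCaP-CT-BR-ER, KRT8 969 and 230, and KLK2 14434 and 3361. Against VCaP-T, 8 of the 11 listed markers were called lower in VCaP-CT-BR-ER and 8 in VCaP-CT-ER (35.3% and 34.7% of all genes). Called higher were 2 and 3 (34.9% and 34.3% of all genes). Of the markers of other cell types, CD3E and COL1A2 had no count, CDH5 had at most 1 count, and the leukocyte sum stayed at or under 0.156 CPM. The fibroblast sum was 7 to 7.77 CPM for VCaP-T, 6.21 to 7.94 for VCaP-CT, 24 to 25 for VCaP-CT-BR, 184 to 216 for VCaP-CT-ER and 217 to 249.5 for VCaP-CT-BR-ER, and in the enzalutamide-resistant sublines nearly all of it was LUM. The endothelial sum fell from 13.2 to 16.3 CPM for VCaP-T to 0.881 to 1.57 for VCaP-CT-BR and at most 0.269 in the enzalutamide-resistant sublines, and the basal sum from 9.58 to 11.1 CPM to at most 1.21 in the drug-resistant sublines. Their part in the results was not tested. CPM stands for counts per 1000000 fragments of a library, scaled by the trimmed mean of M values (TMM).

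The level of the segment was taken per library as the median, over members, of log2 CPM minus the gene's mean in VCaP-T. It was −0.01, 0.04 and 0.00 in the VCaP-T libraries and 0.53, 0.46 and 0.54 for VCaP-CT. In VCaP-CT-ER it was 0.45, 0.51 and 0.45, in VCaP-CT-BR 0.80, 0.80 and 0.81, and in VCaP-CT-BR-ER 0.50, 0.52 and 0.44. All derived libraries thus lay above all VCaP-T libraries, VCaP-CT-BR lay above the rest, and the other derived sublines overlapped. The choice of the segment by itself favours the height of VCaP-CT-BR over members, so nothing is read from it. The same median over the rest of chromosome 4 (661 tested genes) was 0.18 ± 0.04 for VCaP-CT, 0.29 ± 0.04 for VCaP-CT-ER, 0.43 ± 0.03 for VCaP-CT-BR and 0.31 ± 0.01 for VCaP-CT-BR-ER (SD, n = 3), in each case under that of the members. Over the 18898 tested genes of other chromosomes, pooled, the means lay between 0.00 and 0.01, and TMM scaling by itself favours a pooled value near 0. Single chromosomes differed. In VCaP-CT-BR-ER against VCaP-T the median log2 fold change was 0.56 for chromosome 21, 0.44 for X, 0.37 for chromosome 4 and −0.36 for chromosome 7. In VCaP-CT-ER against VCaP-T it was 0.37 for chromosome 3, 0.35 for X and 0.32 for chromosome 4. Chromosome 4 had rank 3 from the highest in both. As a median, the rest of chromosome 4 was thus shifted with the same sign as the members, but not evenly. The 232 genes that start before 50 Mb had median log2 fold changes against VCaP-T of 0.02 for VCaP-CT, 0.25 for VCaP-CT-ER and 0.11 for VCaP-CT-BR-ER. The 251 from 50 Mb to the segment had 0.35, 0.32 and 0.44, and the 178 after it 0.27, 0.37 and 0.52. In VCaP-CT-BR against VCaP-CT, which chose the segment, chromosome 4 had the highest median of all chromosomes, at 0.24 over its 723 tested genes.

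**Figure D1:**
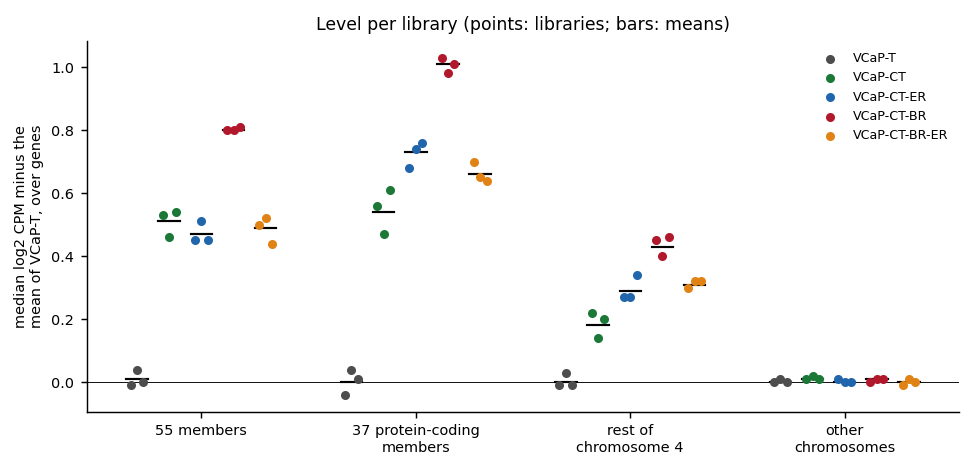
Median over genes of log2 CPM minus the mean of VCaP-T (vertical axis) for each library (points) and subline (colour; black bars are means of 3 libraries), in 4 sets of genes. The VCaP-CT-BR libraries reach 0.80 to 0.81 over the 55 members, against 0.43 on average over the rest of chromosome 4 and 0.01 over other chromosomes, pooled. The choice of the segment favours their height over members.

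Along position, the difference between VCaP-CT-BR and VCaP-CT was not even. Cut by start into a proximal block of 19 members (113.2 to 119.5 Mb), a middle block of 18 (119.5 to 127.9 Mb) and a distal block of 18 (128.0 to 139.5 Mb), the median log2 fold change was 0.08, 0.54 and 0.34. The running median over 11 consecutive tested genes had its highest value in the segment, 0.79, at ABHD18 (128.0 Mb) and its lowest, −0.10, at the pseudogene NT5C3AP1 (117.6 Mb). At the tip of the short arm 3 adjacent windows (ZNF732, ZNF141 and ENSG00000250321) were higher, with a maximum of 0.87. Over 5 genes the highest value in the segment was 0.89, with 19 windows outside it at least as high (maximum 2.23, at GPM6A), and over 21 genes 0.56, with 32 such windows (maximum 0.73, at SPCS3), so that the peak was not particular to the segment. In VCaP-CT-BR-ER against VCaP-T the block medians were 0.42, 0.52 and 0.54, and in VCaP-CT-ER against VCaP-T 0.37, 0.75 and 0.38. Both running medians over 11 genes had their highest value in the segment at ABHD18 too, with 1.10 and 1.19, but 14 and 17 windows outside it were at least as high (maxima 1.89 and 4.33, both at GUCY1B1).

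In the comparison that chose the segment the edges did not stand out. In VCaP-CT-BR against VCaP-CT the members next to the first edge had log2 fold changes of −0.24 (ENSG00000196656), 0.88 (CAMK2D) and 0.08 (UGT8). Just outside lay 0.36 (OSTCP4), −0.18 (RPL7AP30) and 1.88 (ANK2, mean count 7.8). At the last edge the members had 0.77 (NAA15), 0.23 (RAB33B-AS1) and 0.34 (RAB33B), and the genes just outside 0.33 (SETD7), −0.69 (ENSG00000272717) and −0.05 (MGST2). The 20 tested genes before the segment had a median of 0.39, the 20 after it 0.32, all 178 after it 0.36, and the 232 that start before 50 Mb 0.13. At the count minimum, METTL14-DT (mean count 11.8), LINC02466 (14.9) and PRSS12 (15.1) were just inside, with 0.60, 0.35 and −0.78, and ENSG00000213480 (9.8), FKBP4P1 (8.8) and ENSG00000249244 (8.67) just outside, with −0.23, 0.37 and −0.11. Against VCaP-T the 20 genes on either side had lower medians than the members. In VCaP-CT-ER those before the segment had 0.01 and those after it 0.10, against 0.46 for members. In VCaP-CT-BR-ER these were 0.37 and 0.16, against 0.49, and in VCaP-CT 0.02 and 0.04, against 0.49. Members are spread thinly in the distal block, where no member starts for 5.32 Mb between LINC02466 and EEF1A1P35 and for a further 3.12 Mb up to SLC7A11.

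**Figure D2:**
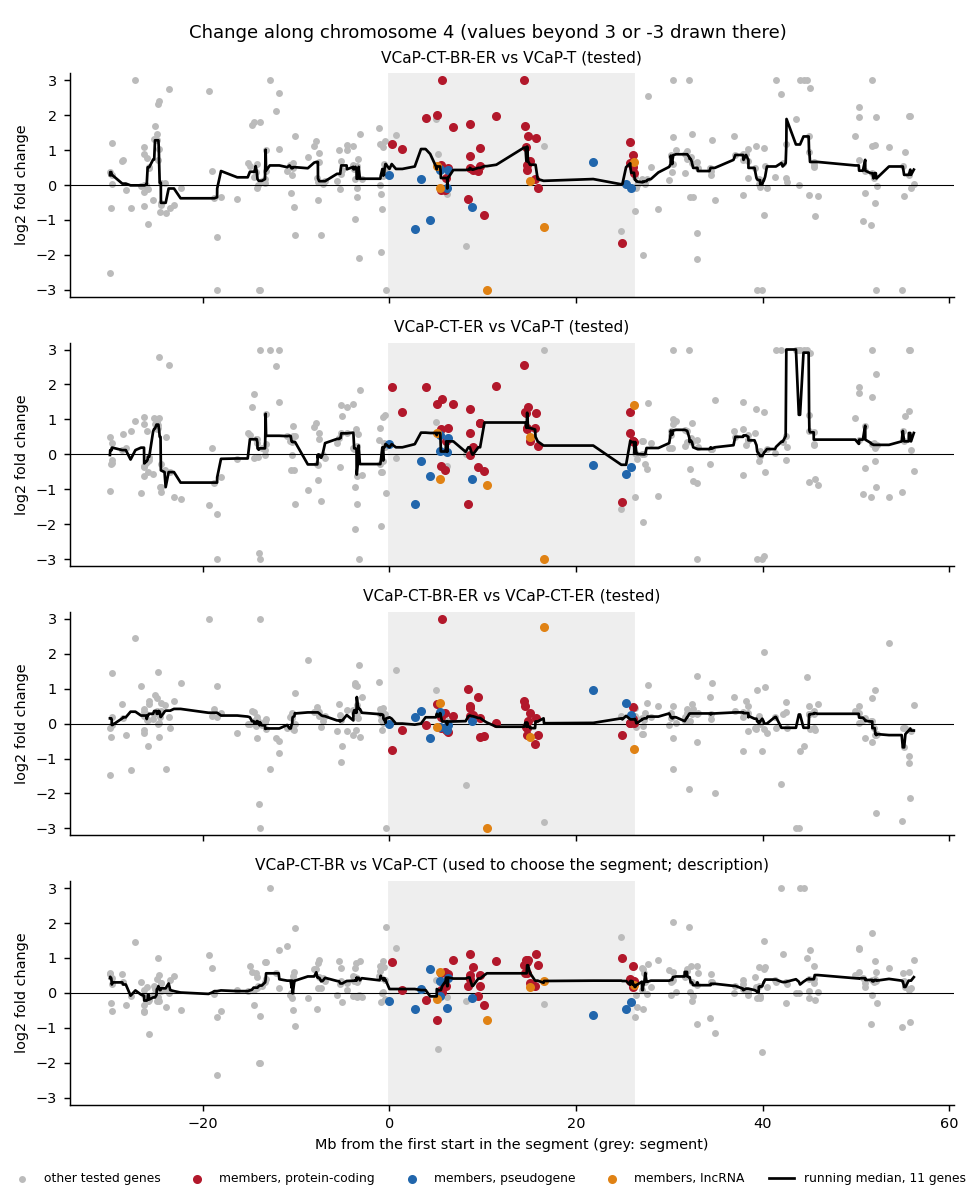
Log2 fold change of each tested gene (vertical axis) against its distance in Mb from the first start in the segment (horizontal axis) for the 3 tested comparisons and the comparison that chose the segment; colours mark members by class, grey dots other genes, the black line the running median over 11 genes. In the bottom panel the line lies above 0 over most of the grey segment, peaks at 0.79, and stays above 0 in the stretch drawn beyond the last edge.

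Both enzalutamide-resistant sublines, whose libraries did not choose the segment, were compared with VCaP-T in one edgeR quasi-likelihood fit over all 15 libraries. In VCaP-CT-BR-ER, 35 members were higher and 9 lower at an adjusted p under 0.05, and 11 did not pass. Over all genes tested 34.9% were called higher and 35.3% lower, against 63.6% and 16.4% of members, and 50.5% and 23.3% of the rest of chromosome 4. In VCaP-CT-ER, 34 members were higher and 12 lower, where 34.3% and 34.7% of all genes were called (members 61.8% and 21.8%, rest of chromosome 4 49.8% and 25.4%). Median log2 fold changes of the members were 0.49 and 0.46, those of the rest of chromosome 4 0.32 and 0.31, and those of other chromosomes, pooled, 0.00 in both. The pair shares the VCaP-T libraries, so that their likeness is no separate evidence. Both sublines also descend from VCaP-CT, and VCaP-CT-BR-ER from bicalutamide-resistant cells. These comparisons share no library with the choice of the segment but are not independent of it by descent. Among the 26 members that overlap no other counted gene, the median was 0.40 in the first and 0.07 in the second comparison, with 12 and 11 called higher and 6 and 7 lower. Their share called higher was thus smaller than the 50.5% and 49.8% of the rest of chromosome 4, which was not cut by overlap. The second median was also under the 0.31 of the rest of chromosome 4, while the first was above its 0.32.

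Set against VCaP-CT-ER, VCaP-CT-BR-ER differed little over the segment as a whole. Of its members 18 were called higher and 10 lower, against 23.3% and 22.7% of all genes (members 32.7% and 18.2%), and the median log2 fold change was 0.06, as over the rest of chromosome 4. The comparisons with libraries that chose the segment are given by fold change alone. In VCaP-CT-BR against VCaP-CT, 41 of 55 members had a log2 fold change above 0 (9523 of the 19621 genes tested) and the median was 0.34, of which nothing is read, since this comparison chose them. VCaP-CT-BR-ER against VCaP-CT-BR had 15 members above 0 (9873 genes) and a median of −0.31, VCaP-CT against VCaP-T 42 (10102 genes) and 0.49, and VCaP-CT-ER against VCaP-CT 26 (9540 genes) and −0.03. VCaP-CT-BR was the subline with the highest mean CPM in 28 members, which the choice of the segment favours, and VCaP-T the lowest in 34. The former is 50.9% of members, against 33% of the rest of chromosome 4 and 18.6% of all genes tested. The latter is 61.8% of members, against 47.4% and 32.3%.

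The classes of member are given apart, without a test of the difference between them. The 37 protein-coding members had medians of 0.62 for VCaP-CT-BR-ER and 0.74 for VCaP-CT-ER against VCaP-T, with 30 and 29 higher and 4 and 5 lower. That is 81.1% and 78.4% higher, against 55.4% and 53.1% of the protein-coding genes on the rest of chromosome 4, whose medians were 0.31 and 0.28. The 12 pseudogenes had medians of 0.09 and −0.24, with 3 higher in each and 3 and 5 lower, where pseudogenes on the rest of the chromosome had medians of 0.28 in both, with 39.4% and 34% higher. The 6 lncRNAs had 2 higher and 2 lower in each. In VCaP-CT-BR against VCaP-CT the medians were 0.52 for protein-coding members, −0.20 for pseudogenes and 0.21 for lncRNAs, beside 0.29, 0.08 and −0.05 for the same classes on the rest of chromosome 4. Short pseudogenes share sequence with their parent genes, so that their counts are less certain, and the counting made no use of strand, which leaves reads of overlapping genes uncertain for the 29 members that overlap another counted gene.

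**Figure D3:**
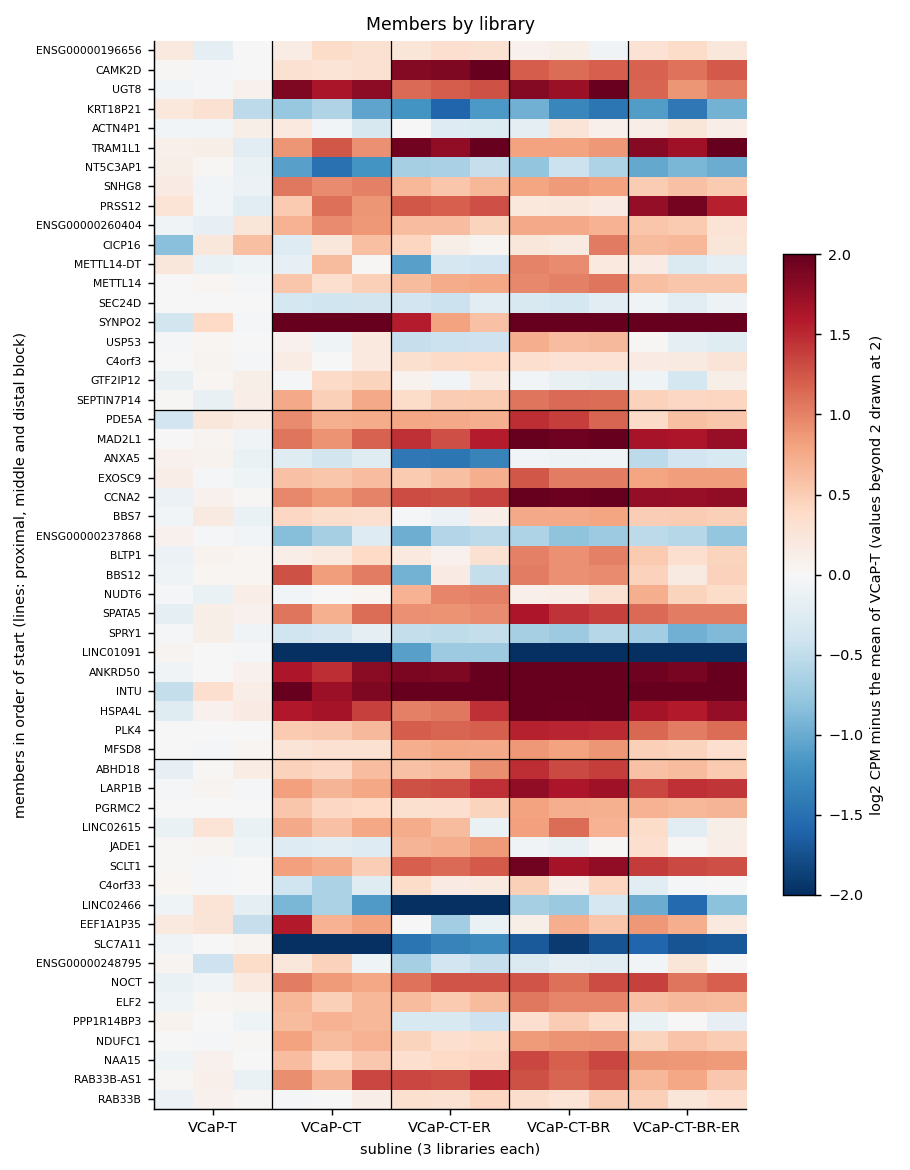
Log2 CPM minus the gene's mean in VCaP-T (colour) for the 55 members in order of start (rows, with lines between the 3 blocks) in each of the 15 libraries (columns, 3 per subline). Red prevails in the derived sublines and is deepest in VCaP-CT-BR for rows such as CCNA2, MAD2L1, ANKRD50 and SCLT1, which the choice of the segment favours. SLC7A11, LINC01091 and KRT18P21 are blue in all derived sublines.

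Cell division and centriole genes of the segment were higher in both enzalutamide-resistant sublines than in VCaP-T. CCNA2, MAD2L1, PLK4 and SCLT1, the last an adaptor at the distal end of centrioles that is needed for cilia, are its measured members. CETN4P did not meet the count rule, and CENPE, named in the same list, starts before the segment. All 4, each protein-coding, rose in both tested comparisons with VCaP-T, with medians of 1.51 for VCaP-CT-BR-ER and 1.25 for VCaP-CT-ER. Of protein-coding members 81.1% and 78.4% were called higher. The shares were 55.4% and 53.1% of protein-coding genes on the rest of chromosome 4, and 34.9% and 34.3% of all genes tested. Described with the libraries that chose the segment, all 4 were higher in VCaP-CT-BR than in VCaP-CT (median 1.03) and lower in VCaP-CT-BR-ER than in VCaP-CT-BR (−0.37).

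CCNA2 (ENSG00000145386.9, minus strand, 121816444 to 121823933) stood at 23.8, 27.2 and 26.2 CPM for VCaP-T, 50, 46.2 and 51 for VCaP-CT and 63.2, 62.7 and 65.6 for VCaP-CT-ER. In VCaP-CT-BR it had 111, 100.4 and 109.8 CPM, and in VCaP-CT-BR-ER 86.3, 85.8 and 87.6. No subline overlapped another. It was higher than in VCaP-T by 1.75 ± 0.06 (log2, SE) in VCaP-CT-BR-ER (edgeR adjusted p = 1.79e-16) and by 1.31 ± 0.06 in VCaP-CT-ER (adjusted p = 2.42e-14), and differed between them by 0.44 ± 0.06 (adjusted p = 1.43e-06). Its end overlaps that of EXOSC9, which lies on the other strand.

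MAD2L1 (120055608 to 120067074, minus strand) stood at 27.5, 28.4 and 25.9 CPM for VCaP-T, 57.2, 50.9 and 61.7 for VCaP-CT, and 75.1, 66.7 and 81.1 for VCaP-CT-ER. VCaP-CT-BR had 109.9, 106 and 109 CPM, and VCaP-CT-BR-ER 85.9, 84.1 and 91.1. The order of sublines was that of CCNA2, again without overlap. Against VCaP-T the log2 fold change was 1.67 ± 0.07 in VCaP-CT-BR-ER (edgeR adjusted p = 1.38e-14) and 1.45 ± 0.07 in VCaP-CT-ER (adjusted p = 1.63e-13). The 0.23 ± 0.07 between them (adjusted p = 0.0096) lost its call without replicate 2 of VCaP-CT-ER (adjusted p = 0.0904) or replicate 3 of VCaP-CT-BR-ER (adjusted p = 0.0594).

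PLK4 (127880861 to 127899195, plus strand) stood at 13.5, 13.4 and 13.5 CPM for VCaP-T, 19.5, 19.6 and 21.1 for VCaP-CT and 31.3, 30.3 and 31 for VCaP-CT-ER, then 39.2, 38.9 and 38 for VCaP-CT-BR and 30, 27.5 and 29.3 for VCaP-CT-BR-ER. It rose by 1.10 ± 0.06 in VCaP-CT-BR-ER (edgeR adjusted p = 3.15e-13) and 1.19 ± 0.06 in VCaP-CT-ER (adjusted p = 7.46e-14), and the difference of −0.09 ± 0.05 between them did not pass (adjusted p = 0.18). SCLT1 went from 5.89, 5.72 and 5.74 CPM for VCaP-T to 22.1, 18.3 and 19.9 for VCaP-CT-BR, with 13.4, 12.8 and 13.5 for VCaP-CT-ER and 15.3, 14.5 and 14.3 for VCaP-CT-BR-ER. For both genes VCaP-CT-BR lay above every other library.

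Genes of mitosis often carry, near their start, the cell cycle homology region, read here as the letters TTTGAA or CTTGAA, and CCAAT boxes. Below are 300 bases around the RefSeq start (250 before and 50 after; build GRCh38.p14) for the 3 mitotic members, printed to show where these letters stand. Capitals mark these letters and the CCAAT box on either strand. On the other strand the box reads ATTGG, and TTCAAA is the first form of the homology region.
CCNA2 (chr4:121823834-121824133, minus strand): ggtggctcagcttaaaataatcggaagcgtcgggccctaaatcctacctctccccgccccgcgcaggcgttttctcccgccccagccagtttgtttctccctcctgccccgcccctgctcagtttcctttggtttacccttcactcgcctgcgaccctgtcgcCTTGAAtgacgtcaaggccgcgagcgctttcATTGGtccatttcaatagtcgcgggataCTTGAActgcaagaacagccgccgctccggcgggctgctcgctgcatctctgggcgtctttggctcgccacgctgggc
MAD2L1 (chr4:120066799-120067098, minus strand): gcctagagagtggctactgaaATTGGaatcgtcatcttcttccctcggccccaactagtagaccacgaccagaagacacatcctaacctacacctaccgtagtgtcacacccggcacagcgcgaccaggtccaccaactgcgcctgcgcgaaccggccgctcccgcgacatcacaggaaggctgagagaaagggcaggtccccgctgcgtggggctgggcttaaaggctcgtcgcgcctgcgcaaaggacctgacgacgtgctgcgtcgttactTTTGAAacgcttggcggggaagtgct
PLK4 (chr4:127880643-127880942, plus strand, first of 3 listed starts): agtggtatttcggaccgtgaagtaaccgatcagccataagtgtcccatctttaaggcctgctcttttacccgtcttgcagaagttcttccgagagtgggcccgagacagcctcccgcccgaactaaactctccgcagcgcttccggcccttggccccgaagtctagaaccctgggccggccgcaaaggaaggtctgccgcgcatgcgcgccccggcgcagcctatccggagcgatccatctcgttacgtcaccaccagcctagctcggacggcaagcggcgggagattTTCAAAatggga

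CCNA2 held CTTGAA from 87 and from 28 bases before the start and ATTGG from 56 before it. MAD2L1 held ATTGG from 229 bases before and TTTGAA from base 25 after the start, and PLK4 held TTCAAA from base 39. TTTGAA on either strand was in 15.2% of 35116 windows of this length, CTTGAA in 11.2%, either in 23.9% and CCAAT in 34.6%. RefSeq listed a window for 37 members, of which 12, 5, 17 and 17 held them in any of their windows. A member with several windows, such as PLK4, has more chances of a match, so these counts and the shares of windows are not comparable. A match describes the letters and does not show that a factor binds.

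Of the cilium genes, BBS7 and BBS12 encode proteins tied to Bardet-Biedl syndrome and INTU a planar polarity effector needed for cilium assembly. INTU rose most of the members whose log2 CPM averaged at least 1. It stood at 0.578, 1.06 and 0.918 CPM for VCaP-T, 3.99, 2.82 and 3.13 for VCaP-CT, 5.05, 4.8 and 5.24 for VCaP-CT-ER, 6.22, 5.36 and 5.53 for VCaP-CT-BR and 8.41, 7.62 and 7.52 for VCaP-CT-BR-ER. Unlike the members above, it was highest in VCaP-CT-BR-ER, where no library overlapped those of other sublines. Its log2 fold change against VCaP-T was 3.19 ± 0.16 there (adjusted p = 1.08e-13) and 2.55 ± 0.16 in VCaP-CT-ER (adjusted p = 9.89e-12), and the difference of 0.64 ± 0.12 passed (adjusted p = 0.000116).

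BBS7 rose by 0.49 ± 0.08 in VCaP-CT-BR-ER (edgeR adjusted p = 1.61e-05), while VCaP-CT-ER was at −0.01 ± 0.08 against VCaP-T (adjusted p = 0.901), and between them the difference was 0.50 ± 0.08 (adjusted p = 2.55e-05). BBS12, at 0.58 to 2.9 CPM over all libraries, passed in neither comparison with VCaP-T (0.39 ± 0.22 and −0.36 ± 0.23). Without replicate 2 of VCaP-CT-ER it was called in the second of these (adjusted p = 0.00538). It differed between the enzalutamide-resistant sublines by 0.75 ± 0.22 (adjusted p = 0.00776), a call lost without replicate 1 of VCaP-CT-ER (adjusted p = 0.0691).

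Signalling genes split. CAMK2D, a calcium/calmodulin-dependent kinase subunit, stood at 24.9, 24.2 and 24.4 CPM for VCaP-T, 30.1, 29.5 and 30.4 for VCaP-CT, and 87.9, 89.1 and 101 for VCaP-CT-ER. It stood at 56.7, 52.9 and 56.3 for VCaP-CT-BR and 55.8, 52.3 and 57.2 for VCaP-CT-BR-ER. VCaP-CT-ER was highest, and VCaP-CT-BR overlapped with VCaP-CT-BR-ER. The log2 fold change was 1.92 ± 0.06 in VCaP-CT-ER (adjusted p = 5.48e-17) and 1.17 ± 0.06 in VCaP-CT-BR-ER (edgeR adjusted p = 2.45e-13) against VCaP-T, and −0.75 ± 0.06 between them (adjusted p = 7.15e-10), the lowest fold change of that comparison among the better expressed members that passed.

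SPRY1, an inhibitor of receptor tyrosine kinase signalling, went the other way. Its CPM were 9.97, 11.1 and 9.79 for VCaP-T, 7.76, 8.12 and 9.03 for VCaP-CT, 7.33, 7.21 and 7.4 for VCaP-CT-ER, 6.46, 6.17 and 6.92 for VCaP-CT-BR and 6.34, 5.26 and 5.53 for VCaP-CT-BR-ER. All derived libraries lay under all VCaP-T libraries, and VCaP-CT-BR overlapped VCaP-CT-BR-ER. SPRY1 fell by 0.85 in VCaP-CT-BR-ER and by 0.49 in VCaP-CT-ER (log2, SE 0.09 each, adjusted p = 3.57e-08 and 3.52e-05). PDE5A, which degrades cyclic GMP, and NUDT6, whose transcript lies antisense to FGF2, were low, at 0.963 to 3.6 and 1.14 to 2.56 CPM, and rose in both comparisons with VCaP-T. The rise of PDE5A in VCaP-CT-BR-ER (0.50 ± 0.17, adjusted p = 0.011) lost its call without replicate 1 of VCaP-T (adjusted p = 0.0879). NUDT6 overlaps FGF2, which did not meet the count rule, and strand was not used.

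**Figure D4:**
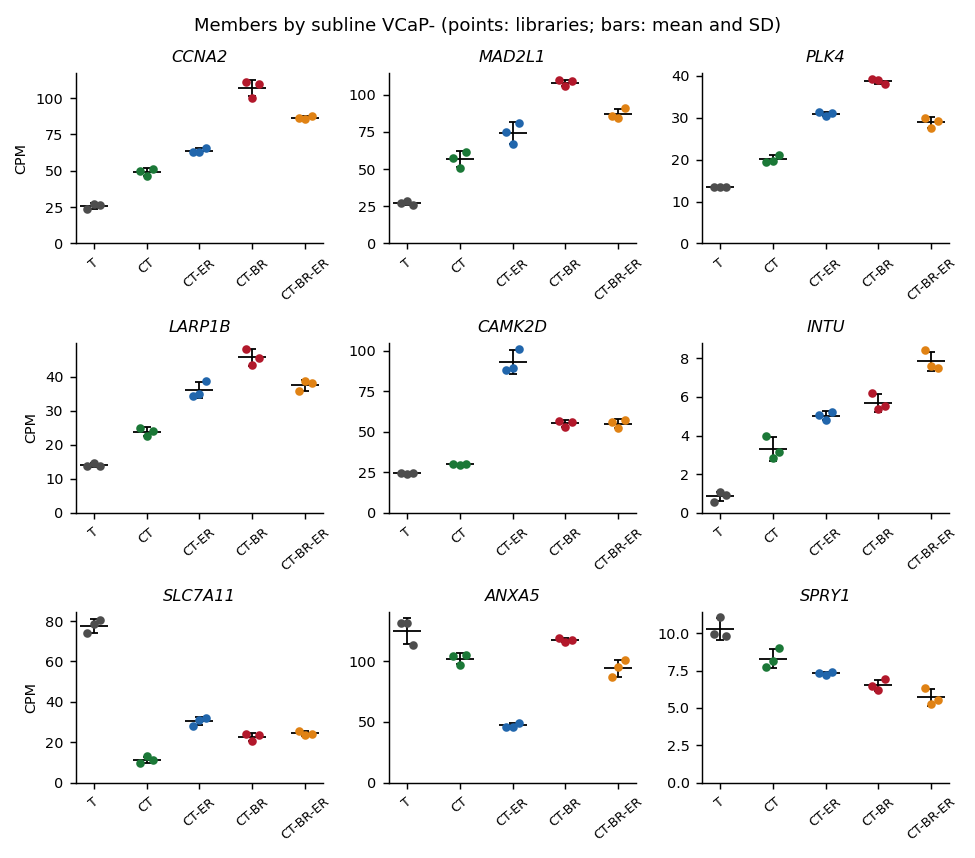
CPM (vertical axis, from 0) of 9 members in the 5 sublines; points are libraries, black bars the mean and SD of 3. CCNA2, MAD2L1, PLK4 and LARP1B peak in VCaP-CT-BR, CAMK2D in VCaP-CT-ER and INTU in VCaP-CT-BR-ER, while SLC7A11 and SPRY1 are highest in VCaP-T and ANXA5 is lowest in VCaP-CT-ER.

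All 8 measured members of the RNA, chromatin and transcription list, each protein-coding, rose in both comparisons with VCaP-T (medians 0.84 and 0.73). Of protein-coding members 81.1% and 78.4% were called higher. The shares were 55.4% and 53.1% of protein-coding genes on the rest of chromosome 4, and 34.9% and 34.3% of all genes. The 8 are METTL14, EXOSC9, JADE1, ELF2, NAA15, NOCT, LARP1B and HSPA4L, with JADE1 close to the threshold in VCaP-CT-BR-ER (adjusted p = 0.0481). LARP1B, an RNA-binding protein of the La family, stood at 13.9, 14.7 and 13.8 CPM for VCaP-T, 25, 22.6 and 24 for VCaP-CT, 34.4, 35 and 38.8 for VCaP-CT-ER, 48.2, 43.4 and 45.5 for VCaP-CT-BR and 35.7, 38.8 and 38 for VCaP-CT-BR-ER. Only VCaP-CT-ER overlapped with VCaP-CT-BR-ER. It rose by 1.41 ± 0.07 in VCaP-CT-BR-ER (edgeR adjusted p = 5.83e-14) and 1.35 ± 0.07 in VCaP-CT-ER (adjusted p = 1.14e-13).

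NAA15, the auxiliary subunit of the enzyme that acetylates the amino end of nascent proteins, stood at 50.9, 57.4 and 54.7 CPM for VCaP-T, 82.7, 71.7 and 79.2 for VCaP-CT and 68.4, 71.8 and 72.4 for VCaP-CT-ER. VCaP-CT-BR had 137, 124 and 137, and VCaP-CT-BR-ER 100.2, 98.5 and 97.9. The VCaP-CT and VCaP-CT-ER libraries overlapped and the others stood apart. Against VCaP-T the log2 fold change was 0.86 ± 0.06 in VCaP-CT-BR-ER (edgeR adjusted p = 2.74e-11) and 0.38 ± 0.06 in VCaP-CT-ER (adjusted p = 6.67e-06), and the difference of 0.48 ± 0.06 passed (adjusted p = 7.4e-07).

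METTL14 stood at 14.9, 15.2 and 14.4 CPM for VCaP-T, 21.7, 18.7 and 20.5 for VCaP-CT, 23, 24.8 and 25.2 for VCaP-CT-ER, 28.7, 29.9 and 31 for VCaP-CT-BR, and 22.5, 21.7 and 21.8 for VCaP-CT-BR-ER. It was again highest in VCaP-CT-BR. It rose by 0.57 ± 0.07 in VCaP-CT-BR-ER (edgeR adjusted p = 1.18e-07) and 0.72 ± 0.07 in VCaP-CT-ER (adjusted p = 3.22e-09). JADE1, part of a histone acetyltransferase complex, rose by 0.75 ± 0.07 in VCaP-CT-ER (adjusted p = 6.97e-09), where it had 48.1, 49.5 and 54.2 CPM against 30.8, 31.2 and 28.4 for VCaP-T and 28.6, 27.2 and 30.8 for VCaP-CT-BR. Its 0.17 ± 0.07 in VCaP-CT-BR-ER (edgeR adjusted p = 0.0481) was lost with DESeq2 (adjusted p = 0.134), with a replicate block (adjusted p = 0.0574) and without replicates 1 or 3 of either subline (adjusted p = 0.0725 to 0.413).

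Among genes of membranes, transport and metabolism was the member that fell most in VCaP-CT-BR-ER of those whose log2 CPM averaged at least 1. SLC7A11 (138164097 to 138242349, minus strand) stood at 73.9, 78.3 and 80.3 CPM for VCaP-T, 9.66, 12.9 and 11.2 for VCaP-CT, and 28, 30.8 and 32 for VCaP-CT-ER. It stood at 24.1, 20.5 and 23.5 for VCaP-CT-BR and 25.6, 23.4 and 23.8 for VCaP-CT-BR-ER. VCaP-T was far above, VCaP-CT lowest, and the other sublines lay between them. SLC7A11 fell by 1.67 in VCaP-CT-BR-ER and by 1.36 in VCaP-CT-ER against VCaP-T (log2, SE 0.08 each, adjusted p = 7.09e-14 and 1.83e-12). It was among the members highest in VCaP-CT-BR relative to VCaP-CT (1.01 ± 0.09) while being under the level of VCaP-T.

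ANXA5, which encodes the phospholipid-binding annexin A5, stood at 131, 131 and 113 CPM for VCaP-T, 104, 97 and 105 for VCaP-CT, 46.1, 45.8 and 49.1 for VCaP-CT-ER, 119, 116 and 117 for VCaP-CT-BR and 86.6, 94.9 and 101 for VCaP-CT-BR-ER. VCaP-CT-ER stood apart below all others. ANXA5 fell by 1.41 in VCaP-CT-ER (SE 0.06, adjusted p = 2.72e-14) and by 0.41 in VCaP-CT-BR-ER (SE 0.06, adjusted p = 5.73e-06), and at 1.00 ± 0.06 it rose most between the enzalutamide-resistant sublines among the better expressed members (adjusted p = 3.91e-11).

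ANKRD50, an ankyrin repeat protein of endosomal sorting, stood at 4.43, 4.63 and 4.97 CPM for VCaP-T, 14.5, 13.1 and 16.4 for VCaP-CT, 17.5, 17.2 and 19.7 for VCaP-CT-ER, 25.9, 27.4 and 28.8 for VCaP-CT-BR and 18.1, 17.5 and 20 for VCaP-CT-BR-ER. It was lowest in VCaP-T and highest in VCaP-CT-BR without overlap, while the enzalutamide-resistant sublines overlapped. Its log2 fold change was 1.98 ± 0.09 and 1.95 ± 0.09 against VCaP-T (adjusted p = 6.03e-14 and 7.27e-14). UGT8, which makes galactosylceramide, rose by 1.03 ± 0.09 and 1.21 ± 0.09, from 7.54, 7.76 and 8.29 CPM for VCaP-T to 17.6, 14.6 and 16 for VCaP-CT-BR-ER and 17.4, 18.2 and 19.2 for VCaP-CT-ER. Its levels of 28.7, 24.5 and 27.4 for VCaP-CT overlapped the 28.3, 26 and 31 of VCaP-CT-BR.

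Over the whole membrane, transport and metabolism list 11 of 16 measured members rose in each comparison with VCaP-T, 3 fell in VCaP-CT-BR-ER and 4 in VCaP-CT-ER. Of all members 63.6% and 61.8% were called higher. Of protein-coding members, the class of every measured gene in this list, 81.1% and 78.4% were. The shares were 55.4% and 53.1% of protein-coding genes on the rest of chromosome 4, and 34.9% and 34.3% of all genes tested. PGRMC2, a haem-binding membrane protein, rose by 0.68 ± 0.05 and 0.37 ± 0.05 (adjusted p = 2.39e-10 and 2.37e-06), and NDUFC1, a subunit of respiratory complex I, by 0.51 ± 0.06 and 0.39 ± 0.06 (adjusted p = 1.35e-07 and 6.08e-06). SEC24D, a coat protein of vesicles that leave the endoplasmic reticulum, fell by 0.34 in VCaP-CT-ER (SE 0.06, adjusted p = 3.27e-05). Its −0.14 ± 0.06 in VCaP-CT-BR-ER (edgeR adjusted p = 0.0442) lost its call without the filter (adjusted p = 0.147), without any single VCaP-T replicate (adjusted p = 0.0586 to 0.0923) and without replicate 2 of VCaP-CT-BR-ER (adjusted p = 0.177).

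SYNPO2, an actin-binding protein and the only measured member of the adhesion and cytoskeleton list, was near the floor in VCaP-T, at 0.0275, 0.0817 and 0.0471 CPM, which is at or under 3 counts in each library. It stood at 0.966, 0.74 and 0.811 CPM for VCaP-CT, 0.249, 0.125 and 0.0994 for VCaP-CT-ER, 1.17, 0.811 and 0.595 for VCaP-CT-BR, and 1.55, 1.74 and 1.6 for VCaP-CT-BR-ER. VCaP-CT-BR-ER lay above all other libraries. It was called higher there than in VCaP-T (adjusted p = 3.58e-10) and than in VCaP-CT-ER (adjusted p = 1.05e-08). The call in VCaP-CT-ER against VCaP-T (adjusted p = 0.0265) was lost with DESeq2 (adjusted p = 0.053), without replicates 1 or 3 of VCaP-T (adjusted p = 0.0931 and 0.0747) and without replicate 1 of VCaP-CT-ER (adjusted p = 0.176).

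Among lncRNAs, LINC01091 stood at 2.51, 2.42 and 2.35 CPM for VCaP-T and 1.12, 1.44 and 1.44 for VCaP-CT-ER, but at most 0.224 CPM in any library of the other sublines. It was called lower in VCaP-CT-BR-ER than in VCaP-T (adjusted p = 4.25e-12) and than in VCaP-CT-ER (adjusted p = 1.99e-09), and fell by 0.87 in VCaP-CT-ER (SE 0.17, adjusted p = 0.000152). SNHG8, a host of small nucleolar RNAs, rose by 0.53 ± 0.06 and 0.62 ± 0.06 (adjusted p = 5.83e-08 and 5.73e-09). RAB33B-AS1 rose by 0.67 ± 0.16 and 1.40 ± 0.14 (adjusted p = 0.000694 and 2.18e-08), and overlaps both NAA15 and RAB33B, of which RAB33B, a Golgi GTPase, rose by 0.35 ± 0.09 in each (adjusted p = 0.00122 and 0.0014).

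The members lowest in VCaP-CT-BR relative to VCaP-CT, among those whose log2 CPM averaged at least 1, were GTF2IP12 (−0.43), SPRY1 (−0.35), PPP1R14BP3 (−0.26), ENSG00000196656 (−0.24) and TRAM1L1 (−0.21), of which 3 are pseudogenes. PPP1R14BP3, a pseudogene that overlaps ELF2, stood at 198, 191 and 179 CPM for VCaP-T, 296, 307 and 302 for VCaP-CT, 152, 152 and 142 for VCaP-CT-ER, 238, 268 and 249 for VCaP-CT-BR and 173, 189 and 169 for VCaP-CT-BR-ER. It was highest in VCaP-CT, unlike ELF2, which had 27.4, 23.8 and 27.4 CPM there and 35.6, 34 and 33.7 for VCaP-CT-BR. TRAM1L1 rose by 1.92 ± 0.15 and 1.94 ± 0.15 in the enzalutamide-resistant sublines (adjusted p = 2.11e-10 and 1.38e-10), from 1.24, 1.25 and 0.989 CPM for VCaP-T to 4.2, 3.85 and 5.03 for VCaP-CT-BR-ER and 4.54, 4.07 and 4.74 for VCaP-CT-ER.

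At 7 places a member on the minus strand and one on the plus strand start within 2000 bases of each other and run in opposite directions. MFSD8 and ABHD18, SCLT1 and C4orf33, NDUFC1 and NAA15, and RAB33B-AS1 and RAB33B overlap at their starts. Strand was not used in counting, which leaves reads of the overlaps uncertain. Such neighbours did not always move together. MFSD8, a lysosomal membrane protein, and ABHD18 rose together in VCaP-CT-BR-ER (0.42 ± 0.07 and 0.58 ± 0.10) and VCaP-CT-ER (0.76 ± 0.07 and 0.71 ± 0.10). NDUFC1 and NAA15 rose together as well. SCLT1 rose by 1.35 ± 0.09 and 1.19 ± 0.09, while its neighbour C4orf33 was at −0.09 ± 0.13 and 0.25 ± 0.12 (adjusted p = 0.539 and 0.0796). NUDT6 and SPATA5, an ATPase, both rose, by 0.54 ± 0.16 and 1.07 ± 0.11 in VCaP-CT-BR-ER and by 0.91 ± 0.15 and 0.91 ± 0.11 in VCaP-CT-ER. The lncRNA METTL14-DT, at 0.104 to 0.596 CPM, passed in neither comparison with VCaP-T, where METTL14 rose.

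Genes of the same pathways that lie elsewhere were read for context, in lists chosen with earlier results of these data known. Over all genes tested, 34.9% were called higher and 35.3% lower in VCaP-CT-BR-ER against VCaP-T, and 34.3% and 34.7% in VCaP-CT-ER. Of 18 mitosis genes outside the segment, 16 rose and 1 fell in VCaP-CT-BR-ER against VCaP-T (median 1.01), and 15 rose and 1 fell in VCaP-CT-ER (0.66). Their median was 0.89 in VCaP-CT-BR against VCaP-CT, beside 1.03 for the 4 cell division and centriole members. CCNB1, the cyclin partner of CDK1, averaged 87.2 ± 4.2 CPM for VCaP-T, 161 ± 11.5 for VCaP-CT, 155 ± 7.02 for VCaP-CT-ER and 344 ± 16.3 for VCaP-CT-BR (SD, n = 3). For VCaP-CT-BR-ER against VCaP-CT-BR, the 18 outside genes had a median of 0.07, with values between −0.47 (TTK) and 0.37 (MAD1L1). CCNB1 stood at 319.6 ± 3.34 CPM in VCaP-CT-BR-ER. All 4 members were lower there than in VCaP-CT-BR (median −0.37). The choice of the segment for height in VCaP-CT-BR by itself favours a fall of its members, so nothing is read from the difference between the lists.

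Of 13 genes of cystine transport and amino acid stress, 10 fell and 3 rose in VCaP-CT-BR-ER (median −1.72), and 11 fell and 2 rose in VCaP-CT-ER (−1.89), as SLC7A11 fell. SLC3A2, the partner chain of the SLC7A11 transporter, averaged 269.7 ± 17.9 CPM for VCaP-T and 91.7 ± 4.04 for VCaP-CT-BR-ER. Of 10 tested genes of FGF signalling, 8 and 7 fell and 1 rose in each comparison (medians −1.46 and −1.56), beside the fall of SPRY1. The 8 partners of METTL14 in N6-methyladenosine were mixed, with 5 and 3 higher and 2 lower in each. Of all genes tested 34.9% and 34.3% were called higher and 35.3% and 34.7% lower in these comparisons. A link of these lists to SLC7A11, SPRY1 or METTL14 was not tested.

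The steps to enzalutamide were set side by side, the first leading to VCaP-CT-ER (from VCaP-CT) and the second to VCaP-CT-BR-ER (from VCaP-CT-BR). In 11 members all libraries rose in the first step and all fell in the second, and in 2 the reverse held. The shares were 6.65% and 6.62% of all genes tested, and 9.38% and 3.78% of the rest of chromosome 4. A choice of genes high in VCaP-CT-BR and low in VCaP-CT favours the former pattern by itself, so nothing is read from the number. The 11 include CCNA2 (0.38 and −0.31), MAD2L1 (0.39 and −0.31), PLK4 (0.62 and −0.42) and SCLT1 (0.50 and −0.45), all 4 measured members of the cell division and centriole list. CAMK2D rose by 1.63 in the first step and was at 0.00 in the second. Since both starting points chose the segment, these are descriptions.

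**Figure D5:**
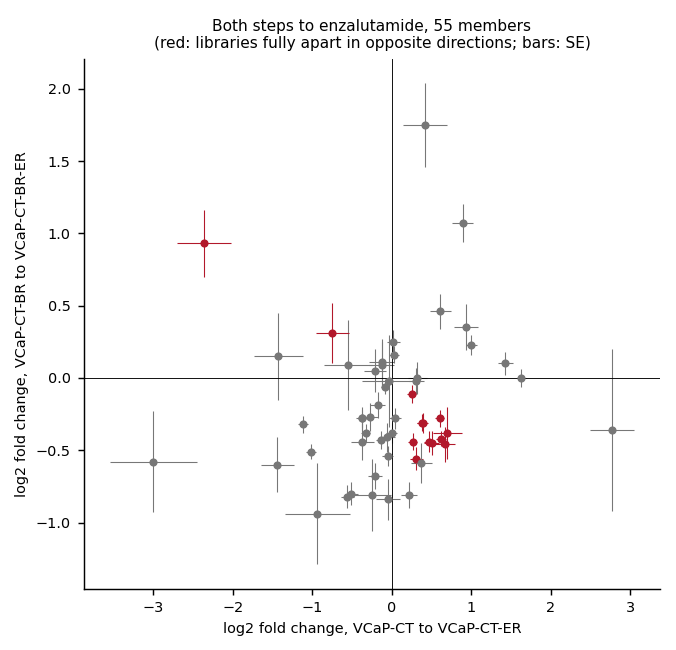
Log2 fold change of the 55 members for VCaP-CT-BR-ER over VCaP-CT-BR (vertical axis) against that for VCaP-CT-ER over VCaP-CT (horizontal axis), with SE bars; red marks the 13 members whose libraries are fully apart in opposite directions. Most red points lie at lower right, higher in the first step and lower in the second, and 2 lie at upper left.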

How the data were processed

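Bulk RNA of 5 VCaP sublines was sequenced as paired reads, 3 libraries each. Per the study's methods and the file headers, the authors aligned reads to GRCh38 with STAR 2.5.4b and deposited raw fragment counts per gene from featureCounts 1.6.2 on GENCODE 28 exons, without strand and without fragments shared by overlapping genes. Symbols and classes came from GENCODE 44 by Ensembl identifier. Counts, with TMM factors, were fitted in edgeR 4.0.16 (R 4.3.3; filterByExpr minimum count 10, 19621 genes, 1 term per subline, quasi-likelihood F tests, Benjamini-Hochberg adjustment, threshold 0.05; biological coefficient of variation 0.0609), which was tested on simulated data. Tested were VCaP-CT-BR-ER and VCaP-CT-ER against VCaP-T and against each other; of the 4 comparisons with VCaP-CT or VCaP-CT-BR libraries only fold changes from the same fit are given, with no test read. Log2 CPM used a prior count of 2. P-values measure the spread between 3 cultures of a single derivation.

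Members and lists were chosen with earlier results of these data known. Named genes are measured members of role lists, the 5 highest and 5 lowest in VCaP-CT-BR against VCaP-CT and the 2 that rose and fell most per tested comparison (average log2 CPM of at least 1), and the 3 nearest to each edge on either side. No molecular identifiers were described, so a floor of 3 counts covers counting error only. Alternatives were DESeq2 1.42.0, upper-quartile scaling, no filter, fits of the 2 compared sublines, a replicate block, each library left out, other running windows (5 and 21 genes), members with a mean count of at least 100 or without overlap, and, chosen after seeing the data, protein-coding members. Figures were drawn with matplotlib 3.10.9. RefSeq promoter windows were matched by symbol. One marker of the line is not reported here.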

Additional observations from a re-analysis of the deposited data

Results flagged for a closer look

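In 13 members all libraries moved one way in the first step to enzalutamide (VCaP-CT-ER over VCaP-CT) and the other way in the second (VCaP-CT-BR-ER over VCaP-CT-BR). A rise then a fall held for 20% of members, 9.38% of the rest of chromosome 4 and 6.65% of all genes tested. The reverse held for 3.64%, 3.78% and 6.62%. The difference between the steps was not tested, because VCaP-CT and VCaP-CT-BR chose the segment, which by itself favours a rise in the first step and a fall in the second. The first step minus the second, in log2 fold change, was 1.13 for C4orf33, 1.08 for NT5C3AP1, 1.04 for PLK4, 0.95 for SCLT1 and 0.91 for MFSD8. It was 0.88 for LARP1B, 0.87 for ANKRD50, 0.70 for METTL14, 0.70 for MAD2L1, 0.69 for CCNA2 and 0.36 for C4orf3. In these 11 members RNA was higher after the first step and lower after the second. SYNPO2 (−3.29) and ENSG00000248795 (−1.06) went the other way, the former from the low counts given above.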

How the results depend on the processing

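With DESeq2, upper-quartile scaling, no filter or fits of the compared sublines alone, the number of members called stayed within 1.5 times that of the main fit. Which members are counted mattered more for medians and levels. A smaller set holds fewer calls by its size alone, so nothing is read from its number called. Among the 26 members that overlap no other counted gene, 18 were called in VCaP-CT-BR-ER and 18 in VCaP-CT-ER against VCaP-T (44 and 46 among all members), and 13 between them (28). Their medians were 0.15 for VCaP-CT-BR against VCaP-CT, −0.08 for VCaP-CT-BR-ER against VCaP-CT-BR, 0.29 for VCaP-CT against VCaP-T and −0.16 for VCaP-CT-ER against VCaP-CT, and their levels 0.34 for VCaP-CT, 0.11 for VCaP-CT-ER, 0.63 for VCaP-CT-BR and 0.34 for VCaP-CT-BR-ER. With the 39 members of mean count at least 100, VCaP-CT-BR against VCaP-CT was 0.44, VCaP-CT against VCaP-T 0.57 and VCaP-CT-ER against VCaP-CT turned to 0.04, with levels of 0.63 for VCaP-CT-ER, 0.95 for VCaP-CT-BR and 0.56 for VCaP-CT-BR-ER. With the 37 protein-coding members, an alternative chosen after seeing the data, these were 0.52, 0.57 and, again turned, 0.25, and the levels 0.73, 1.01 and 0.66. Upper-quartile scaling gave 0.30 for VCaP-CT-BR against VCaP-CT and 0.53 for VCaP-CT against VCaP-T. The highest running median in the segment was 0.89 over 5 genes and 0.56 over 21, where 19 and 32 windows elsewhere on the chromosome were at least as high. The cause was not tested.

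Leaving out each library in turn gave 41 to 44 members called in VCaP-CT-BR-ER and 44 to 47 in VCaP-CT-ER against VCaP-T, and 21 to 27 between them. Medians ranged from 0.28 to 0.40 for VCaP-CT-BR against VCaP-CT, from −0.31 to −0.28 for VCaP-CT-BR-ER against VCaP-CT-BR, from 0.45 to 0.53 for VCaP-CT against VCaP-T and from −0.06 to 0.05 for VCaP-CT-ER against VCaP-CT. Members that were not called and lay near 0 changed sign. Against VCaP-T in VCaP-CT-BR-ER these were ENSG00000248795 (−0.16 to 0.22), LINC02615 (−0.07 to 0.28), METTL14-DT (−0.30 to 0.02) and GTF2IP12 (−0.23 to 0.01), and in VCaP-CT-ER BBS7 (−0.08 to 0.08), CICP16 (−0.25 to 0.45) and GTF2IP12 (−0.01 to 0.12). Between the enzalutamide-resistant sublines they were ELF2 (−0.03 to 0.03), NOCT (−0.08 to 0.08), ANKRD50 (−0.03 to 0.08), RAB33B (−0.07 to 0.06), TRAM1L1 (−0.15 to 0.05), ENSG00000196656 (−0.04 to 0.03) and ENSG00000237868 (−0.07 to 0.14). Upper-quartile scaling turned BBS7 (0.01), ELF2 (0.00), NOCT (−0.01), RAB33B (−0.01) and ENSG00000196656 (−0.02), no filter BBS7 (0.01), RAB33B (0.00) and ENSG00000196656 (−0.01), and DESeq2 and the fit of the compared sublines ENSG00000196656 (−0.01 each).

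Replicate numbers did not pair the libraries: correlations of same-numbered deviations ran from −0.126 to 0.106, and in no pair of sublines were all 3 over 0.1. A replicate block gave 43, 46 and 29 members called in the tested comparisons, against 44, 46 and 28. Counts at or under 3 in a library allow no fold change.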
